A study of Mus musculus with 8 samples.

Results

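Hox genes and T-box genes were examined in sorted basal cells of the mouse mammary gland. Basal cells form the contractile outer layer of its ducts. The genes were taken by name: every protein-coding gene of the Hoxa, Hoxb, Hoxc and Hoxd clusters, and every protein-coding gene named Tbx with a number. The rule found 52 genes, 39 Hox and 13 Tbx, among the 27164 genes of the count tables. It used no measured value, but it was chosen with earlier results of these data known. All cells came from untreated 10-week-old female C57BL/6 mice bearing the allele Lgr5-GFP-IRES-CreERT2, which places green fluorescent protein and an inducible Cre recombinase at the Lgr5 locus. Lgr5 is a receptor for R-spondins, and Tspan8 (T8) is a tetraspanin of the cell membrane. The cells were sorted into 4 populations: cells with both markers (Lgr5+T8hi), with high Tspan8 alone (Lgr5-T8hi), with Lgr5 alone (Lgr5+T8-) and with neither (Lgr5-T8-), with 2 libraries of single-end RNA sequencing each, 1 from each of 2 batches. Whether separate mice gave the libraries of a population is not stated in the labels. The p-values therefore reflect only the spread among these samples, and that spread may be technical.

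Hox genes encode homeodomain transcription factors whose order along each chromosome cluster follows where they act from head to tail in the embryo. Low paralog numbers mark anterior and high numbers posterior members. T-box factors share a DNA-binding domain named after Brachyury, and among them Tbx3 is needed for the mammary placode, the first sign of the gland in the embryo. Its close relative Tbx2 is a transcriptional repressor that is also expressed in the embryonic mammary line.

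The libraries held 24571300 to 38384875 gene counts. Levels are given as CPM, counts per 1000000 after scaling of library sizes, or, where genes are compared, as RPKM, which also divides by the deposited gene length in kilobases. Where a gene had 0 counts in a library, its level could still be as high as 0.0799 to 0.12 CPM, depending on the library (3 counts, counting error only). The 15 basal markers together reached 25900 to 37300 CPM in each library, none of them at 0 throughout, and the 19 luminal markers 1230 to 2770 CPM. The sort genes followed their labels, although Lgr5-T8hi cells still held 119 and 129 CPM of Lgr5 and Lgr5-T8- cells 58.4 and 50.5, against 174 to 212 CPM in the Lgr5+ libraries. Fibroblast, endothelial, pericyte and immune markers were present at low to moderate sums in every library, and their values are given below beside those of the Hox genes. In bulk samples such as these, fewer cells of a type and less RNA per cell cannot be told apart.

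Of the 52 genes, 25 had enough counts to be tested (17 Hox and 8 Tbx), and 27 did not. Of those 27, 9 had 0 counts in every library: Hoxa11, Hoxa13, Hoxb13, Hoxc11, Hoxc12, Hoxd11, Hoxd12, Hoxd13 and Tbx22. With 253286147 counts over all libraries, this allows a level of up to 0.0119 CPM. They include every gene of paralog numbers 11 and 12, and 3 of the 4 genes of number 13, the posterior ends of the clusters. The other 18 genes had between 1 and 47 counts over the 8 libraries, from Tbx20 with 1 to Hoxa7 with 47. Among these were Hoxa7, Hoxa9, Hoxa10, Hoxb1, Hoxb6, Hoxc9, Hoxc10, Hoxc13, Hoxd10, Tbx4, Tbx10, Tbx19 and Tbx20. Without a count filter, none of the 18 passed the threshold in the Tspan8 comparison by edgeR, where Hoxc10 came nearest with an unadjusted p of 0.0237 and an adjusted p of 0.136. Tested genes had at least 57 counts. A low-count gene passes such a filter through the population in which it is high, so counts over the tested genes describe those genes and not the family.

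Expression was dominated by a few genes (the map of Hox levels). Tbx3 had the highest mean level, 14.6 RPKM, above 79.1% of protein-coding genes in the tables. Hoxb3 followed at 5.65 RPKM, Tbx2 at 4.11, Hoxb2 at 3.93 and Hoxb4 at 1.64. Tbx6, a factor of the paraxial mesoderm in the embryo, stood at 1.37 RPKM, and Tbx21 (T-bet), known from T and natural killer cells, at 0.738. Hoxd8, Tbx15 and Hoxb9 came next, with 0.656, 0.628 and 0.571 RPKM. Every other member lay at or below 0.353 RPKM.

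**Figure D1:**
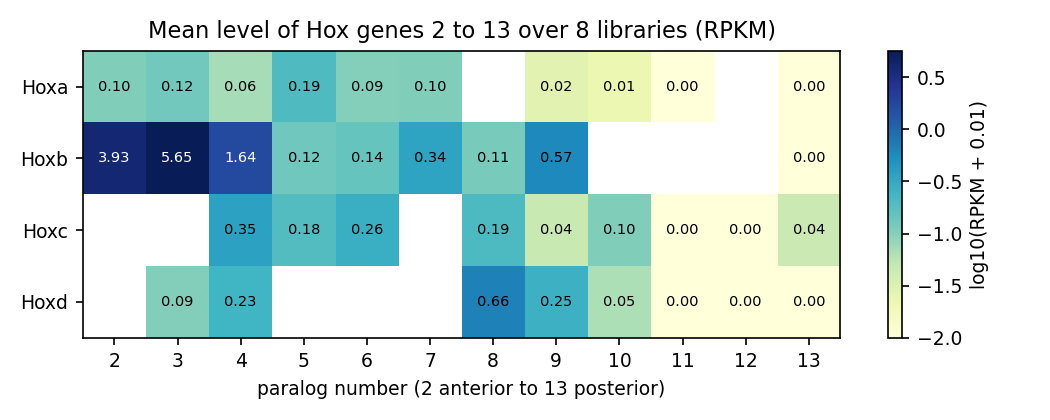
Mean level of the 36 Hox genes of paralog numbers 2 to 13 over the 8 libraries in RPKM, printed in each cell and coloured by log10(RPKM + 0.01), with clusters in rows and paralog numbers in columns. Blank cells are genes that mice lack. Hoxb2, Hoxb3 and Hoxb4 stand above 1 RPKM, all others shown lie below 0.7, and numbers 11 and 12 are at 0.

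Hoxb2, Hoxb3 and Hoxb4 lie next to each other on chromosome 11 and together made up 71.6% of the summed Hox RPKM. The 16 Hox genes of numbers 9 to 13 made up 6.86%. The genes on either side of this trio in the cluster were far lower, Hoxb1 at 0.0119 RPKM and Hoxb5 at 0.12 RPKM. By cluster, the sum over the genes in a library was 9.93 to 15.7 RPKM for Hoxb, 0.256 to 1.78 for Hoxa, 0.649 to 2.00 for Hoxc and 0.605 to 2.81 for Hoxd. In the GENCODE M21 annotation, 52.9% of the exonic bases of Hoxb3 and 27.3% of those of Hoxb2 overlap Hoxb3os on the other strand. The strand setting of the counting was not given in the sources used here, so reads of these genes and of Hoxb3os cannot be told apart.

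Hoxb3 (Entrez 15410, chr11:96307101-96347930, GRCm38.p6) was called in no comparison between populations. It stood at 18.7 and 23.9 CPM in Lgr5+T8hi (batch 1, then batch 2), 17.7 and 21.8 in Lgr5-T8hi, 21.3 and 21.7 in Lgr5+T8-, and 18.9 and 24.2 in Lgr5-T8- libraries. The groups overlapped, and its log2 difference was -0.07 ± 0.08 (standard error) for Tspan8 (edgeR adjusted p = 0.602) and 0.06 ± 0.08 for Lgr5 (edgeR adjusted p = 0.714). Hoxb2 (Entrez 103889, chr11:96351632-96354020) held 6.11 and 7.19, 6.56 and 6.45, 6.05 and 5.54, and 5.15 and 8.20 CPM in the same order, again with overlapping groups. Its Tspan8 difference was 0.08 ± 0.14 (edgeR adjusted p = 0.749) and its Lgr5 difference -0.07 ± 0.14 (edgeR adjusted p = 0.806).

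Tbx2 had the smallest adjusted p of the members in both the Tspan8 and the Lgr5 comparison (the plot of Tbx2 and Tbx3 by library). In cells with both markers, Tbx2 (Entrez 21385, chr11:85832615-85841948) held 5.83 and 5.64 CPM, against 10.3 and 8.84 in Lgr5-T8hi, 10.1 and 8.73 in Lgr5+T8-, and 34.4 and 33.3 in the Lgr5-T8- libraries. The Lgr5-T8- cells, with 33.8 ± 0.805 CPM (SD, n = 2), lay far above all others, and the Lgr5+T8hi cells, with 5.73 ± 0.134, lay lowest. The libraries of the populations with 1 marker overlapped each other and lay between these extremes. The log2 difference of the T8hi from the T8- populations was -1.27 ± 0.09 (edgeR adjusted p = 2.82e-06), with -1.27 in batch 1 and -1.26 in batch 2. That of the Lgr5+ from the Lgr5- populations was -1.29 ± 0.09 (edgeR adjusted p = 4.99e-06), with -1.28 in each batch.

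Neither marker alone described Tbx2. Among Lgr5- cells Tbx2 was lower with Tspan8 by a log2 difference of -1.83 ± 0.12 (edgeR adjusted p = 3.67e-06), and among Lgr5+ cells by -0.72 ± 0.13 (edgeR adjusted p = 0.00336). Likewise, it was lower with Lgr5 by -1.84 ± 0.12 among T8- cells (edgeR adjusted p = 3.74e-06) and by -0.74 ± 0.13 among T8hi cells (edgeR adjusted p = 0.0091). The difference between the Tspan8 effects in Lgr5+ and Lgr5- cells, the interaction, was 1.11 ± 0.17 (edgeR adjusted p = 0.00599), with 0.94 in batch 1 and 1.28 in batch 2. Without Lgr5+T8hi replicate 2 the interaction was 1.05 with an adjusted p of 0.0505, the highest among the fits that left out 1 library. The Tspan8 effect within Lgr5+ cells had an adjusted p of 0.0792 without Lgr5+T8hi replicate 1. The Lgr5 effect within T8hi cells had one of 0.167 without that library, 0.0955 without Lgr5+T8hi replicate 2 and 0.152 without Lgr5-T8hi replicate 1. Without the batch block the interaction had an edgeR adjusted p of 0.19. The gates were also unequal in Lgr5 RNA. Within Lgr5- cells Lgr5 was higher with Tspan8 by 1.18 ± 0.11 (edgeR adjusted p = 5.68e-05). Within Lgr5+ cells that difference was -0.11 ± 0.11 (edgeR adjusted p = 0.615). The Lgr5 gate separated Lgr5 by 1.86 ± 0.11 within T8- cells and by 0.57 ± 0.11 within T8hi cells. Tspan8 RNA was unequal across the Lgr5 gate too. It was higher with Lgr5 by 0.79 ± 0.11 within T8hi cells (275 against 159 CPM, edgeR adjusted p = 0.00394). Within T8- cells it was higher by 1.20 ± 0.15 (8.7 against 3.76 CPM, edgeR adjusted p = 0.00047). The part of these Lgr5 and Tspan8 levels in the Tbx2 effects was not tested.

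**Figure D2:**
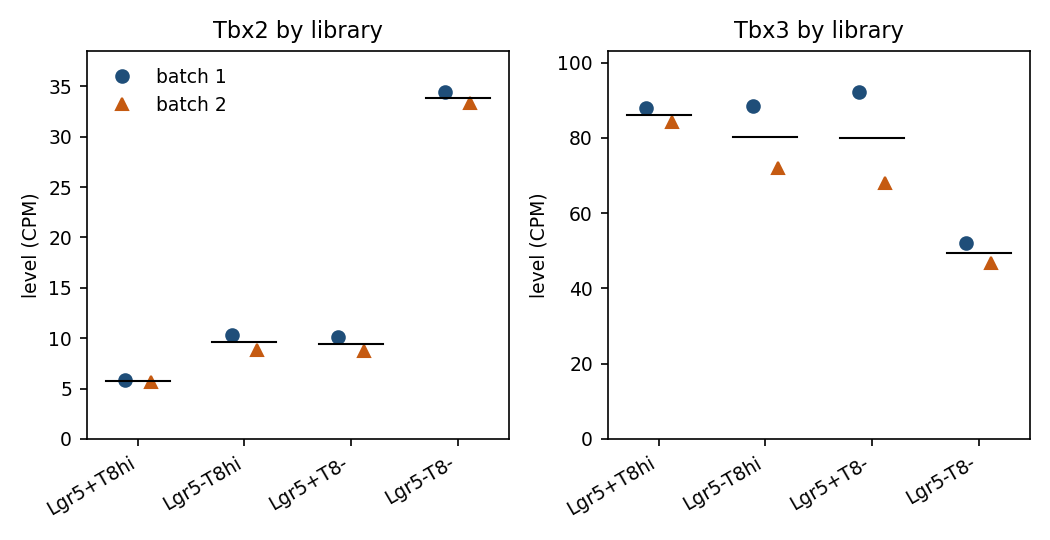
Level of Tbx2 (left) and Tbx3 (right) in CPM in each of the 8 libraries by sorted population, with circles for batch 1, triangles for batch 2 and a line at the mean of 2 libraries. Tbx2 is highest in Lgr5-T8- cells (34.4 and 33.3 CPM) and Tbx3 is lowest there (52.0 and 46.8 CPM).

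Tbx3 (Entrez 21386, chr5:119670534-119684724) ran the other way. It held 88.0 and 84.3 CPM in the Lgr5+T8hi libraries, 88.4 and 72.0 in Lgr5-T8hi, 92.1 and 68.0 in Lgr5+T8-, and 52.0 and 46.8 in Lgr5-T8- libraries. The Lgr5-T8- libraries lay below all others, while the remaining 3 populations overlapped. The log2 difference was 0.41 ± 0.07 for Tspan8 (edgeR adjusted p = 0.00248) and 0.40 ± 0.07 for Lgr5 (edgeR adjusted p = 0.00443). It was 0.69 ± 0.10 for Tspan8 within Lgr5- cells (edgeR adjusted p = 0.00136) but 0.12 ± 0.10 within Lgr5+ cells (edgeR adjusted p = 0.574). It was 0.69 ± 0.10 for Lgr5 within T8- cells (edgeR adjusted p = 0.00141) and 0.11 ± 0.10 within T8hi cells (edgeR adjusted p = 0.754). The interaction itself, -0.58 ± 0.15, missed the threshold (edgeR adjusted p = 0.0662). The part of the unequal Lgr5 and Tspan8 levels of the gates in these differences was not tested. Each of the 4 calls of Tbx3 was lost without the batch block, with adjusted p of 0.139 and 0.233 for the effects of Tspan8 and Lgr5, and of 0.159 and 0.135 within Lgr5- and within T8- cells.

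Since both genes were counted in the same libraries, their ratio is free of library size. The ratio of Tbx3 to Tbx2 in RPKM was 10.6 and 10.5 in Lgr5+T8hi, 6.03 and 5.71 in Lgr5-T8hi, 6.37 and 5.46 in Lgr5+T8-, and 1.06 and 0.987 in Lgr5-T8- libraries. The 2 genes were thus at nearly equal length-scaled levels in Lgr5-T8- cells, and Tbx3 was well above Tbx2 everywhere else. Their sum, 15.8 to 21.0 RPKM, overlapped between the populations.

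The neighbours of Tbx2 and Tbx3 were read to see whether the changes extended along the chromosome. Bcas3, the protein-coding gene before Tbx2 at a distance of 6.56 kb, had a Tspan8 difference of -0.21 (edgeR adjusted p = 0.0619) and a Lgr5 difference of -0.13 (edgeR adjusted p = 0.286). Tbx4, a hindlimb factor 44.4 kb on the other side, had 27 counts in all libraries together. The noncoding gene 2610027K06Rik, on the opposite strand 0.227 kb before Tbx2 and overlapping Bcas3, had 40 and 21 counts in Lgr5-T8- libraries and 5 to 14 in the others. Its Lgr5 difference of -1.30 missed the threshold (edgeR adjusted p = 0.0614), as did its Tspan8 difference of -0.80 (edgeR adjusted p = 0.226). Tbx3os2, a noncoding gene on the opposite strand 0.364 kb beyond Tbx3, had 34 and 37 counts in Lgr5+T8hi, 25 and 19 in Lgr5-T8hi, 17 and 15 in Lgr5+T8-, and 7 and 2 in Lgr5-T8- libraries. It was higher with Tspan8 by 1.52 ± 0.35 (edgeR adjusted p = 0.0115) and with Lgr5 by 1.44 ± 0.35 (edgeR adjusted p = 0.0239). Tbx5, a heart and forelimb factor 112 kb from Tbx3, showed no call, with differences of 0.65 ± 0.33 for Tspan8 (edgeR adjusted p = 0.238) and 0.06 ± 0.34 for Lgr5 (edgeR adjusted p = 0.943).

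The comparison of the T8hi with the T8- populations, with both Lgr5 states weighted equally, asked which members follow the Tspan8 gate. Hoxa3, Hoxb4, Hoxb7, Hoxd8, Hoxd9, Tbx3, Tbx15 and Tbx18 were higher in T8hi cells, and Tbx1 and Tbx2 were lower. Of the 25 tested genes 8 were higher and 2 lower, where 9.13% of all 16526 genes tested were higher and 5.52% lower. Low-count members such as Hoxa3 and Tbx1 were tested only through the side where they were high. These counts therefore do not describe the family. The median log2 difference of all genes was -0.02.

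Tbx15 (Entrez 21384, chr3:99240348-99354260), a T-box factor known from skeletal and dermal mesenchyme, held 4.01 and 3.06 CPM in the Lgr5+T8hi libraries, 3.52 and 1.94 in Lgr5-T8hi, 1.29 and 0.718 in Lgr5+T8-, and 2.06 and 1.32 in Lgr5-T8- libraries. Within each batch both T8hi libraries lay above both T8- libraries, although the groups overlapped across batches. The difference was 1.25 ± 0.17 (edgeR adjusted p = 0.000473), with 1.17 in batch 1 and 1.27 in batch 2. It remained past the threshold without any 1 library, with adjusted p up to 0.00458, but not without the batch block (0.058).

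Hoxb4 (Entrez 15412, chr11:96318267-96321638), known from blood stem cells and the hindbrain, was the most abundant Hox gene to change. It held 6.46 and 5.79 CPM in the Lgr5+T8hi libraries, 4.09 and 4.21 in Lgr5-T8hi, 4.19 and 2.91 in Lgr5+T8-, and 2.24 and 3.79 in Lgr5-T8- libraries. The Lgr5+T8hi libraries were the highest. Both Lgr5-T8hi libraries lay above both Lgr5-T8- libraries, and the Lgr5+T8- libraries overlapped each of these. The difference was 0.63 ± 0.18 (edgeR adjusted p = 0.0408), while its neighbours Hoxb3 and Hoxb2 had differences of -0.07 ± 0.08 and 0.08 ± 0.14.

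Hoxd8 (Entrez 15437, chr2:74704615-74707933) and Hoxd9 (Entrez 15438, chr2:74697763-74700208) are adjacent genes of the Hoxd cluster, and Hoxd9 acts with Hoxa9 and Hoxb9 in growth of the mammary gland in pregnancy. Hoxd8 held 1.15 and 2.08 CPM with both markers, 0.797 and 1.01 with Tspan8 alone, 0.535 and 0.478 with Lgr5 alone, and 0.576 and 0.846 with neither. Within each batch both T8hi libraries lay above both T8- libraries, while across batches the groups overlapped between 0.797 and 0.846 CPM. Its difference was 0.98 ± 0.25 (edgeR adjusted p = 0.0225). Hoxd9 had 34 and 29, 11 and 22, 7 and 2, and 16 and 13 counts in the same order (0.98 and 1.10, 0.302 and 0.586, 0.22 and 0.0797, and 0.485 and 0.478 CPM), so that its T8hi and T8- groups overlapped. Its difference was 1.28 ± 0.37 (edgeR adjusted p = 0.0387).

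Hoxa3 (Entrez 15400, chr6:52169059-52213067), which patterns the pharyngeal arches, had 15 and 18 counts in Lgr5+T8hi, 11 and 14 in Lgr5-T8hi, 2 and 2 in Lgr5+T8-, and 7 and 7 in Lgr5-T8- libraries. Scaled for library size, every T8hi library (0.302 to 0.681 CPM) lay above every T8- library (0.063 to 0.257 CPM). Its difference was 1.69 ± 0.41 (edgeR adjusted p = 0.0158), and 25.4% of its exonic bases overlap genes on the other strand. Hoxb7 (Entrez 15415, chr11:96285604-96290163) had 25 and 27, 5 and 22, 5 and 4, and 7 and 11 counts in the same order, with a difference of 1.30 ± 0.40 (edgeR adjusted p = 0.0493, and 0.0518 with RLE normalization). Tbx18 (Entrez 76365, chr9:87702800-87731260), known from pericytes and other mural cells of vessels, had 31 and 27, 18 and 22, 5 and 8, and 13 and 16 counts. Its difference was 1.09 ± 0.31 (edgeR adjusted p = 0.033), and 20.6% of its exonic bases overlap a gene on the other strand. In Hoxa3, Hoxb7 and Tbx18 the Lgr5+T8hi libraries had the highest CPM of the 8. The Lgr5+T8- libraries had the lowest in Hoxa3 and Tbx18, and in Hoxb7 they were 0.157 and 0.159 CPM, just above Lgr5-T8hi replicate 1 at 0.137.

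Tbx1 (Entrez 21380, chr16:18580979-18590671), a factor of the pharyngeal region, moved the other way. It had 4 and 6 counts in Lgr5+T8hi, 4 and 6 in Lgr5-T8hi, 36 and 10 in Lgr5+T8-, and 9 and 12 in Lgr5-T8- libraries. The T8hi libraries were all under the filter's minimum of 10 counts, so Tbx1 was tested only through its T8- libraries. In CPM, every T8- library (0.273 to 1.13) lay above every T8hi library (0.11 to 0.227), and Lgr5+T8- replicate 1 stood apart. The difference was -1.78 ± 0.49 (edgeR adjusted p = 0.0287), and -1.12 without that library (adjusted p = 0.165).

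Among these 10 genes, Tbx2, Tbx3 and Tbx15 kept their calls when any 1 library was left out, and the other 7 did not. Without Lgr5+T8hi replicate 1 the adjusted p was 0.178 for Hoxb4, 0.197 for Hoxb7, 0.137 for Hoxd9, 0.195 for Tbx1 and 0.127 for Tbx18. Without Lgr5+T8hi replicate 2 it was 0.0849 for Hoxa3, 0.10 for Hoxb4, 0.0952 for Hoxb7, 0.133 for Hoxd8, 0.114 for Hoxd9, 0.0559 for Tbx1 and 0.0855 for Tbx18. Of the 10 calls 3 were left without this library, where calls over all genes fell from 2421 to 1428. The log2 differences without it were 1.60 for Hoxa3, 0.68 for Hoxb4, 1.46 for Hoxb7, 0.83 for Hoxd8, 1.28 for Hoxd9, -2.10 for Tbx1 and 1.18 for Tbx18, in each gene within 1 standard error of the value from all libraries. Without Lgr5-T8hi replicate 1 it was 0.0628 for Hoxa3, 0.0913 for Hoxb4, 0.0857 for Hoxd8, 0.14 for Tbx1 and 0.115 for Tbx18. Without Lgr5-T8hi replicate 2 it was 0.0526 for Hoxa3, 0.0991 for Hoxb4, 0.496 for Hoxb7, 0.0592 for Hoxd8, 0.23 for Hoxd9 and 0.091 for Tbx18. Calls were also lost without T8- libraries. Leaving out Lgr5+T8- replicate 1 gave 0.0583 for Hoxb7, 0.165 for Tbx1 and 0.102 for Tbx18. Leaving out Lgr5+T8- replicate 2 gave 0.0767 for Hoxa3, 0.152 for Hoxb4, 0.243 for Hoxb7, 0.121 for Hoxd8, 0.183 for Hoxd9 and 0.0616 for Tbx18. With the Lgr5-T8- libraries left out in turn, Hoxb7 and Hoxd9 lost their calls in both cases, at 0.0792 and 0.0522 without replicate 1 and at 0.0823 and 0.0632 without replicate 2. Hoxb4 (0.0984) and Tbx18 (0.0714) lost theirs without replicate 1, and Tbx1 (0.089) without replicate 2. No direction changed in any of these fits, and the differences over the 8 fits lay between 1.6 and 1.8 for Hoxa3, 0.43 and 0.88 for Hoxb4, 0.78 and 1.57 for Hoxb7, 0.79 and 1.20 for Hoxd8, 0.95 and 1.86 for Hoxd9, -2.25 and -1.12 for Tbx1, and 0.97 and 1.28 for Tbx18. DESeq2, which gave no adjusted p for Hoxa3, called Hoxb4, Tbx2, Tbx3 and Tbx15.

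For the genes higher with Tspan8, promoter windows of 300 bases, 250 before and 50 after the start, were taken from RefSeq (GRCm38.p6). Windows were found for Hoxa3, Hoxb4, Hoxd8, Hoxd9 and Tbx18 among the 8, and for 31 of the 52 members, with 36 windows. These 5 windows are shown because each gene was called higher with Tspan8 over both Lgr5 states, with the bases of a motif match in capitals. Among Lgr5- cells alone none of them was called, with differences from -0.13 ± 0.48 (Hoxd9) to 0.51 ± 0.51 (Hoxa3). The start of Hoxb4, and with it this window, lies inside the span of Hoxb3.

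Hoxa3 (chr6:52213018-52213317, minus strand): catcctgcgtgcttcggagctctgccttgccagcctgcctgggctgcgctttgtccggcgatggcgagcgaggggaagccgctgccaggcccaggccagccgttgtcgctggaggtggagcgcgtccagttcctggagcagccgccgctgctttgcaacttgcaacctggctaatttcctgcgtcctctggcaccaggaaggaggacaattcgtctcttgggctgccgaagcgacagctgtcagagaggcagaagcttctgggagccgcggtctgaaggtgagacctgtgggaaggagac

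Hoxb4 (chr11:96318017-96318316, plus strand): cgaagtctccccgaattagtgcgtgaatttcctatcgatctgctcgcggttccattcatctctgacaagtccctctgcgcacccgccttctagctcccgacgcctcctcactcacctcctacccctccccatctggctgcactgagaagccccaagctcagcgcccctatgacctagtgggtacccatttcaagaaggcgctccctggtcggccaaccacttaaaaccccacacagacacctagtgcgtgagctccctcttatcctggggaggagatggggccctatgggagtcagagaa

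Hoxd8 (chr2:74704365-74704664, plus strand): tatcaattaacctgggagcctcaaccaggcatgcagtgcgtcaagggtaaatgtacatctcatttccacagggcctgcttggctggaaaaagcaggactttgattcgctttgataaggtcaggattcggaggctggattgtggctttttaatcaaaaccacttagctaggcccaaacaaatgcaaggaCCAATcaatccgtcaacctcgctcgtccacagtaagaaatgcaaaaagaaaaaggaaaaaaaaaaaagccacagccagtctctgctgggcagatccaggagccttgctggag

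Hoxd9 (chr2:74697513-74697812, plus strand): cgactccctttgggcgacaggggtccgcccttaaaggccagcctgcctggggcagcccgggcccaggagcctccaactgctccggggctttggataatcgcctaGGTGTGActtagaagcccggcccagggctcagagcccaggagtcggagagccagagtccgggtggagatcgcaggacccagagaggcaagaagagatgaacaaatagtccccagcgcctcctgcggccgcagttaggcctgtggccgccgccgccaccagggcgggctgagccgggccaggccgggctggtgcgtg

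Tbx18 (chr9:87731211-87731510, minus strand): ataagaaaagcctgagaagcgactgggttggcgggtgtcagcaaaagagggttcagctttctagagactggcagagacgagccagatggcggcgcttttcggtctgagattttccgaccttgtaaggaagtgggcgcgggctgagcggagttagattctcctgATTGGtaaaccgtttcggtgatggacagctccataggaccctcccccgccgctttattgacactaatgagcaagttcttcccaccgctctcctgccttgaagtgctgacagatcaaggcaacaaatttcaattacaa

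The motifs were searched on both strands as exact letters. The T-box core GGTGTGA was found in 1 of the 36 member windows, that of Hoxd9, at bases 105 to 111, and in 3.98% of all 32851 windows. The Hox-Pbx motif TGATNNAT was found in 6 member windows (16.7%), against 8.85% of all windows, and in none of those shown. The CCAAT box, CCAAT, was found at bases 189 to 193 of the Hoxd8 window and, read from the other strand as ATTGG, at bases 164 to 168 of that of Tbx18. It stood in 19 member windows (52.8%) and in 37.4% of all. The TCF/LEF letters CTTTGAA were in 2 member windows (5.56%, against 5.14% of all) and TATAAA in 6 (16.7%, against 13.6%). The median number of CpG in a window was 13.5 for members and 7.0 for all windows, and the median GC content was 57.8% and 52.7%. A match is a run of letters and not a measured site.

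The Tspan8 difference was then read within each Lgr5 state (the plot of log2 fold changes by Lgr5 status). Among Lgr5+ cells, Hoxa3, Hoxb7, Hoxb9, Hoxd3, Hoxd8, Hoxd9, Tbx15 and Tbx18 were higher in T8hi than in T8- cells, and Tbx2 was lower. Of the 25 tested genes 8 were higher and 1 lower, where 7.27% of all genes were higher and 2.17% lower. Hoxa3 and Hoxd3 were among those tested only through T8hi libraries. These Lgr5+ calls are by edgeR, and limma-voom called the same 9 genes. DESeq2 called only Hoxb9, Hoxd9, Tbx15 and Tbx2, and edgeR without the batch block only Hoxa3 and Hoxd9. Among Lgr5- cells the calls were 1 higher, Tbx3, and 1 lower, Tbx2, where 3.70% of all genes were higher and 3.36% lower. None of the 17 tested Hox genes was called among Lgr5- cells, by edgeR, DESeq2 or limma-voom, and 0 had an unadjusted p under 0.05 by any of these tools.

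**Figure D3:**
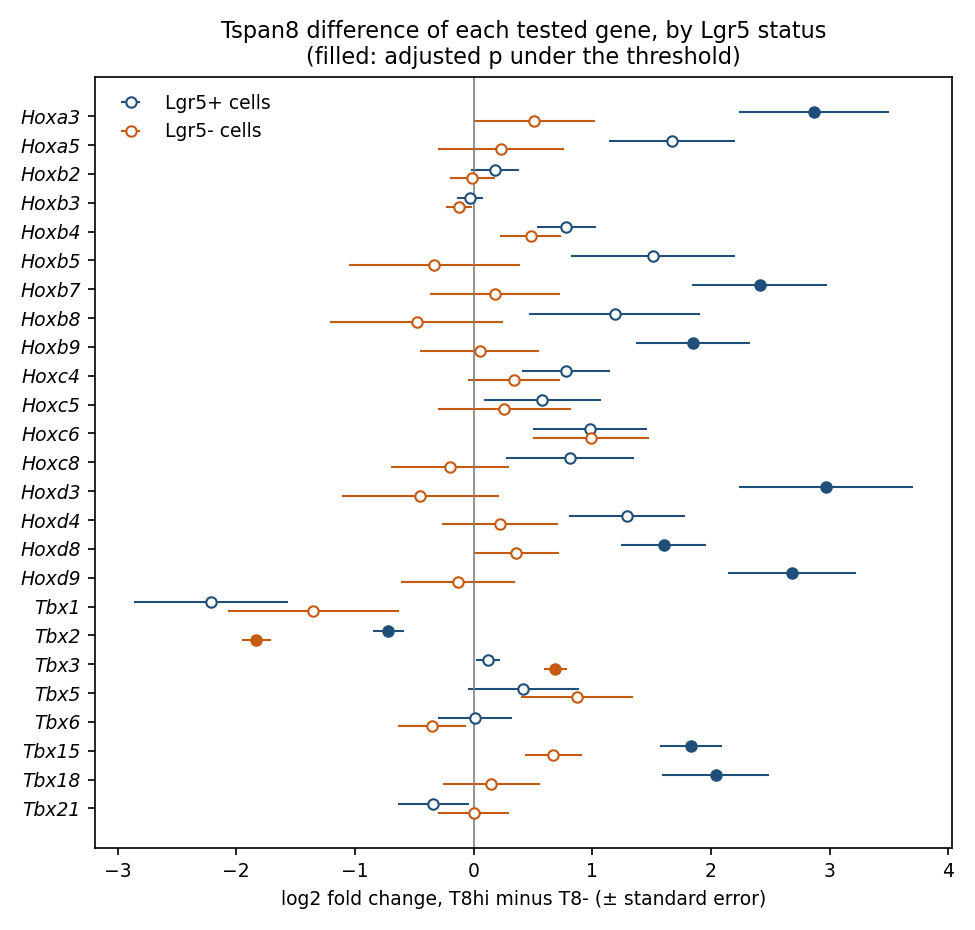
Log2 fold change of each of the 25 tested genes between T8hi and T8- cells, with bars of 1 standard error, in Lgr5+ cells (blue) and Lgr5- cells (orange), filled where the adjusted p was under 0.05. In Lgr5+ cells 6 Hox genes, Tbx15 and Tbx18 are higher in T8hi cells, and in Lgr5- cells only Tbx2 and Tbx3 are filled.

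Hoxd3 (Entrez 15434, chr2:74711993-74748271) had 19 and 16 counts in Lgr5+T8hi, 3 and 11 in Lgr5-T8hi, 1 and 3 in Lgr5+T8-, and 9 and 6 in Lgr5-T8- libraries. Its difference within Lgr5+ cells was 2.97 ± 0.73 (edgeR adjusted p = 0.023). In the annotation 62.3% of its exonic bases are shared with other genes of the same strand, Hoxd4 among them, so the split of reads between these genes is uncertain. Hoxb9 (Entrez 15417, chr11:96271330-96276595), which acts with Hoxa9 and Hoxd9 in the mammary gland, held 3.40 and 2.95 CPM in the Lgr5+T8hi libraries, 0.687 and 1.46 in Lgr5-T8hi, 1.32 and 0.399 in Lgr5+T8-, and 1.15 and 0.956 in Lgr5-T8- libraries. The Lgr5+T8hi libraries lay above all 6 others. Its difference within Lgr5+ cells was 1.85 ± 0.48 (edgeR adjusted p = 0.0442).

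For the other genes called in Lgr5+ cells, the difference was 2.87 ± 0.63 for Hoxa3, 2.41 ± 0.57 for Hoxb7, 1.60 ± 0.36 for Hoxd8 and 2.68 ± 0.54 for Hoxd9, with edgeR adjusted p from 0.00794 to 0.0184. It was 1.83 ± 0.26 for Tbx15 (edgeR adjusted p = 0.000734) and 2.04 ± 0.45 for Tbx18 (edgeR adjusted p = 0.0134). In Lgr5- cells the same genes had differences of 0.51 ± 0.51, 0.18 ± 0.55, 0.36 ± 0.36 and -0.13 ± 0.48 for the Hox genes, 0.67 ± 0.24 for Tbx15 and 0.15 ± 0.41 for Tbx18. The test of the difference between the states did not pass for any of them, with edgeR adjusted p of 0.243 for Hoxa3, 0.253 for Hoxb7, 0.349 for Hoxd8, 0.0813 for Hoxd9, 0.14 for Tbx15 and 0.183 for Tbx18. For Hoxb9 and Hoxd3 it was 0.334 and 0.128. Tbx2 was the 1 member of the 25 called for the interaction, as higher, where 2.18% of all genes were higher and 0.363% lower.

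The remaining 8 tested Hox genes, Hoxa5, Hoxb5, Hoxb8, Hoxc4, Hoxc5, Hoxc6, Hoxc8 and Hoxd4, were called in no comparison. They had 1 to 33 counts in a library. Within Lgr5+ cells their Tspan8 differences lay between 0.58 ± 0.49 (Hoxc5) and 1.67 ± 0.53 (Hoxa5, edgeR adjusted p = 0.0726), and within Lgr5- cells between -0.48 ± 0.73 (Hoxb8) and 0.99 ± 0.49 (Hoxc6, edgeR adjusted p = 0.309).

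Within Lgr5+ cells, the call of Tbx15 held without any 1 library, and the other 8 calls each missed the threshold in at least 1 such fit. Without Lgr5+T8hi replicate 1 the adjusted p was 0.0614 for Hoxa3, 0.164 for Hoxb7, 0.257 for Hoxb9, 0.179 for Hoxd3, 0.0796 for Hoxd9, 0.0792 for Tbx2 and 0.115 for Tbx18. Without Lgr5+T8hi replicate 2 it was 0.139 for Hoxa3, 0.0856 for Hoxb7, 0.23 for Hoxb9, 0.106 for Hoxd3, 0.226 for Hoxd8, 0.0722 for Hoxd9 and 0.08 for Tbx18. Without either of these libraries 2 of the 9 calls were left, and calls over all genes fell from 1560 to 800 and 627. Without Lgr5+T8- replicate 1 it was 0.0697 for Hoxa3, 0.158 for Hoxd3 and 0.0979 for Tbx18. Without Lgr5+T8- replicate 2 it was 0.123 for Hoxa3, 0.261 for Hoxb7, 0.201 for Hoxb9, 0.105 for Hoxd3, 0.209 for Hoxd8, 0.111 for Hoxd9 and 0.0627 for Tbx18, and 3 members were called, Tbx1 among them. Hoxb9 alone also lost its call without a library of another population, at 0.0907 and 0.0798 without Lgr5-T8- replicates 1 and 2. The differences kept their direction, with ranges over the 8 fits of 2.69 to 3.08 for Hoxa3, 1.90 to 2.95 for Hoxb7, 1.19 to 3.12 for Hoxb9, 2.48 to 3.84 for Hoxd3, 1.23 to 2.04 for Hoxd8, 2.04 to 3.86 for Hoxd9, 1.78 to 2.41 for Tbx18 and -0.78 to -0.61 for Tbx2.

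Summed over genes, the low-level Hox genes had their highest values in Lgr5+T8hi cells, and so did markers of other cell types (the plot of summed Hox and marker levels). The 36 Hox genes other than Hoxb2, Hoxb3 and Hoxb4 summed to 6.49 and 9.22 RPKM in Lgr5+T8hi, 3.27 and 4.57 in Lgr5-T8hi, 2.84 and 2.36 in Lgr5+T8-, and 3.13 and 3.71 in Lgr5-T8- libraries. The sum of Hoxb2, Hoxb3 and Hoxb4 was 11.3 and 13.1, 10.4 and 11.4, 11.1 and 10.4, and 9.11 and 13 RPKM, with overlapping groups. Endothelial markers summed to 715 and 808 CPM in Lgr5+T8hi libraries and 173 to 454 in the other 6. Fibroblast markers summed to 2430 and 2640 CPM there and to 1510 to 2120 elsewhere, and immune markers to 41.3 and 56.1 CPM there and to 19.9 to 30.8 elsewhere. Pericyte markers, at 477 and 396 CPM there and 245 to 429 elsewhere, overlapped, and adipocyte markers were at 315 and 215 CPM there and 43.4 to 117 elsewhere. No gene of these 5 marker lists was at 0 in all libraries.

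**Figure D4:**
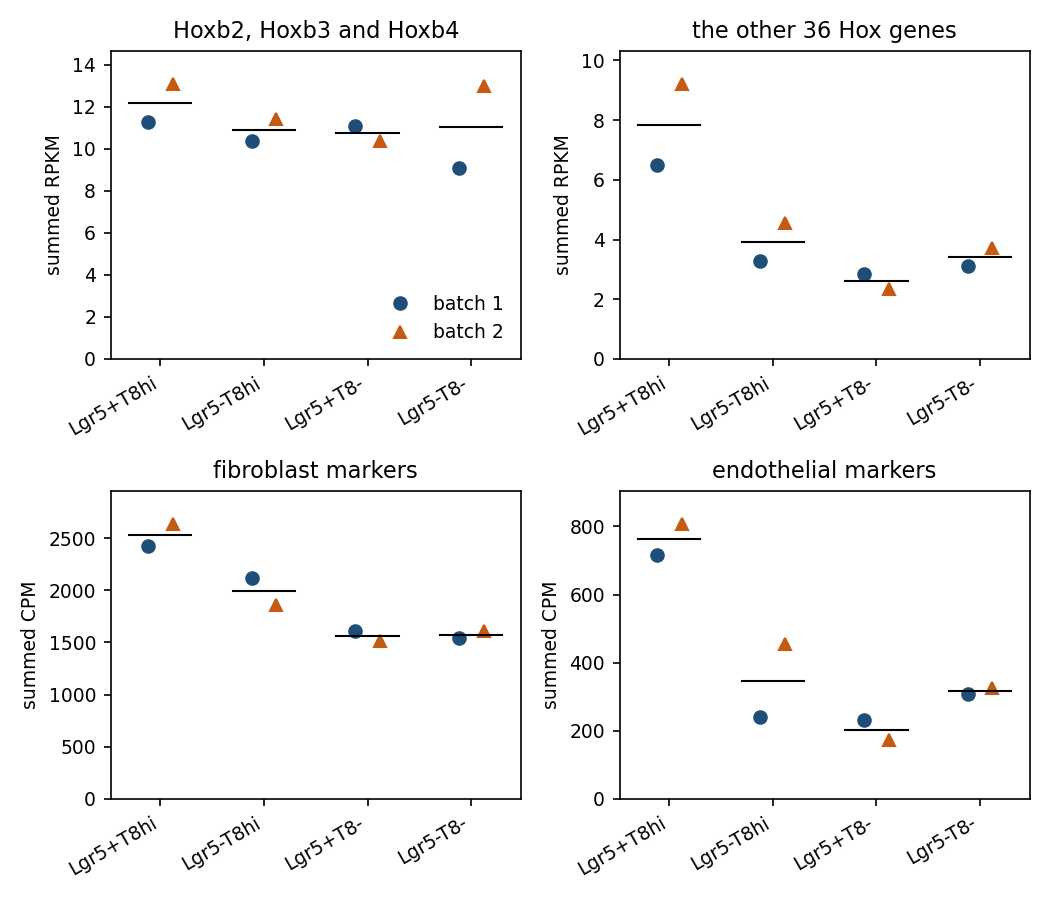
Summed level in each library by population, with circles for batch 1, triangles for batch 2 and a line at the mean of 2 libraries: RPKM of Hoxb2, Hoxb3 and Hoxb4 (top left) and of the other 36 Hox genes (top right), and CPM of 14 fibroblast (bottom left) and 13 endothelial markers (bottom right). The other 36 Hox genes and the endothelial markers are highest in both Lgr5+T8hi libraries (6.49 and 9.22 RPKM, 715 and 808 CPM), and Hoxb2 to Hoxb4 overlap between populations.

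Within Lgr5+ cells, edgeR called 12 of 13 endothelial, 12 of 14 fibroblast, 8 of 10 pericyte and 8 of 14 tested immune markers higher with Tspan8, and none lower. Of all genes it called 7.27% higher and 2.17% lower there. Within Lgr5- cells it called 11 of 14 fibroblast markers higher and 2 lower, and 0 of the endothelial, pericyte and immune markers, of which 0, 3 and 1 had an unadjusted p under 0.05. DESeq2 called 0 of them as well, and limma-voom 1 pericyte marker. Of all genes, edgeR called 3.70% higher and 3.36% lower within Lgr5- cells. Skeletal muscle markers, at 23.3 and 14 CPM in Lgr5-T8hi libraries and 4.96 to 9.55 elsewhere, were higher with Tspan8 within Lgr5- cells in 8 of 10. Luminal markers were higher in both states, 12 and 13 of 19, and basal markers lower, 8 of 15 in each. The part of these markers in the changes of Hoxa3, Hoxb7, Hoxb9, Hoxd3, Hoxd8, Hoxd9, Tbx15 and Tbx18 was not tested. In Lgr5-T8- libraries, where Tbx2 was highest and Tbx3 lowest, the basal sum was the highest (37300 and 35800 CPM, against 25900 to 35500 elsewhere). The luminal sum was the lowest of its batch there, at 1600 CPM against 2330 to 2770 in batch 1 and 1230 against 1500 to 2100 in batch 2. The endothelial sum was 309 and 325 CPM there. The part of these cell types in the changes of Tbx2 and Tbx3 was not tested.

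The comparison of Lgr5+ with Lgr5- cells, averaged over Tspan8 status, gave 1 member higher, Tbx3, and 1 lower, Tbx2, where 4.23% of all genes were higher and 4.86% lower. Among the 17 tested Hox genes 0 were called by edgeR, DESeq2 or limma-voom, and 1 had an unadjusted p under 0.05 by edgeR. That gene was Hoxb4, with a difference of 0.41 ± 0.18 (edgeR adjusted p = 0.211). Within T8hi cells Tbx2 was the 1 member called, as lower, where 2.29% of all genes were higher and 1.05% lower. Within T8- cells Tbx3 was called higher and Tbx2 lower, where 3.81% of all genes were higher and 5.05% lower. No Hox gene was called in either state. An unadjusted p under 0.05 was seen within T8hi cells for 6 of the 17 by edgeR, 1 by DESeq2 and 7 by limma-voom. Within T8- cells it was seen for 2, 0 and 2.

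With batch 2 set against batch 1, 1 of the 25 tested genes was higher and 4 were lower, a share no larger than that of all genes. Hoxb3 was higher by 0.26 ± 0.08 (edgeR adjusted p = 0.0267), and Tbx3, Tbx5, Tbx15 and Tbx21 were lower, where 16.0% of all genes were higher and 16.9% lower. Tbx21 (Entrez 57765, chr11:97098007-97115331) held 2.39 and 1.25 CPM in the Lgr5+T8hi libraries, 2.01 and 1.36 in Lgr5-T8hi, 3.46 and 1.24 in Lgr5+T8-, and 1.85 and 1.51 in Lgr5-T8- libraries, lower in batch 2 in each population. Its batch difference was -0.82 ± 0.21 (edgeR adjusted p = 0.0123), and its Tspan8 difference was -0.17 ± 0.21 (edgeR adjusted p = 0.663). Tbx6 (Entrez 21389, chr7:126781483-126785548) held 1.87 and 2.23, 2.11 and 2.56, 2.68 and 1.36, and 3.15 and 2.83 CPM in the same order, and was called in no comparison. The 14 T and natural killer cell markers summed to 26.1 and 23.1, 20.2 and 14.8, 20.2 and 16.3, and 16.7 and 11.8 CPM, also lower in batch 2 in each population, and their part in the Tbx21 difference was not tested. Each batch call was lost without some single libraries. The call of Hoxb3 was lost without any 1 T8hi library or without Lgr5-T8- replicate 2 (adjusted p from 0.0571 to 0.123). That of Tbx3 was lost without any 1 Lgr5-T8hi or Lgr5+T8- library (0.122 to 0.235), and that of Tbx15 without either Lgr5-T8hi library (0.113 and 0.0874). Those of Tbx5 and Tbx21 were lost without any 1 Lgr5+ library (0.0892 to 0.113, and 0.0538 to 0.0858).

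Hox proteins bind DNA together with the TALE homeodomain proteins Pbx, Meis and Pknox. All 9 genes of this list were tested. With Tspan8, 2 were higher and 1 lower, where 9.13% of all genes were higher and 5.52% lower, and the list median was 0.10 against -0.02 for all genes. Meis2 was higher by 0.92 ± 0.18 (edgeR adjusted p = 0.00422) and Meis3 by 0.31 ± 0.09 (edgeR adjusted p = 0.0355), and Pbx3 was lower, by -0.52 ± 0.09 (edgeR adjusted p = 0.00161). Within Lgr5+ cells Meis2 was higher by 1.59 ± 0.26 (edgeR adjusted p = 0.00199), and within Lgr5- cells its difference was 0.24 ± 0.24 (edgeR adjusted p = 0.671). Meis3 was called within Lgr5- cells (0.46 ± 0.13, edgeR adjusted p = 0.0465) but not within Lgr5+ cells (0.15 ± 0.12, edgeR adjusted p = 0.542). Pbx3 was lower in both, by -0.43 ± 0.12 in Lgr5+ (edgeR adjusted p = 0.0498) and -0.60 ± 0.12 in Lgr5- cells (edgeR adjusted p = 0.0092). With Lgr5, edgeR, DESeq2 and limma-voom called 0 of the 9, and 3 had an unadjusted p under 0.05 by edgeR. Of all genes, edgeR called 4.23% higher and 4.86% lower with Lgr5.

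Retinoic acid controls Hox clusters in the embryo, and 8 of 17 tested genes of its pathway were higher with Tspan8 and 0 lower, with a list median of 0.38, where 9.13% of all genes were higher and 5.52% lower. Luminal markers (14 of 19) and fibroblast markers (12 of 14) were also higher with Tspan8, and Aldh1a3 is itself known from luminal progenitor cells. The part of these cell types in the pathway's changes was not tested. Cyp26b1, which degrades retinoic acid, was higher by 1.05 ± 0.11 (edgeR adjusted p = 6.83e-05), and Aldh1a3, which makes it, by 1.63 ± 0.15 (edgeR adjusted p = 0.000102). The receptor gene Rara was higher by 0.38 ± 0.07 (edgeR adjusted p = 0.00245). With Lgr5, 3 of the 17 were higher and 3 lower, where 4.23% of all genes were higher and 4.86% lower. Rara by 0.58 ± 0.07 and Cyp26b1 by 0.74 ± 0.11 were higher, and the receptor gene Rxrg by -3.24 ± 0.55 was lower (edgeR adjusted p between 0.000206 and 0.00321).

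Polycomb and Trithorax proteins keep Hox genes off or on. Of 26 genes of this list, 0 were called for Tspan8 by edgeR, DESeq2 or limma-voom, and 2 had an unadjusted p under 0.05 by edgeR. Of all genes, edgeR called 9.13% higher and 5.52% lower. Cbx6 was the 1 gene called for Lgr5, at 0.32 ± 0.06 (edgeR adjusted p = 0.00733), where 4.23% of all genes were higher and 4.86% lower. Among 19 tested genes of other patterning homeobox families, 3 were higher and 2 lower with Tspan8, beside 9.13% and 5.52% of all genes. Dlx5 was higher by 2.29 ± 0.41 (edgeR adjusted p = 0.00234) and Dlx3 lower, by -1.91 ± 0.17 (edgeR adjusted p = 1.61e-05). Prrx1, a mesenchymal factor, was called for the interaction, at 1.03 ± 0.19 (edgeR adjusted p = 0.0157).

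Tbx3 acts with other signals in the embryonic mammary bud. Of 16 tested genes of this placode list, 3 were higher and 3 lower with Tspan8, beside 9.13% and 5.52% of all genes. Bmp4 was higher by 1.45 ± 0.23 (edgeR adjusted p = 0.00146) and Wnt6 lower, by -1.25 ± 0.12 (edgeR adjusted p = 3.82e-05). Pthlh, the gene of parathyroid hormone-related protein, was higher by 0.70 ± 0.12 with Tspan8 (edgeR adjusted p = 0.00469) and by 0.69 ± 0.12 with Lgr5 (edgeR adjusted p = 0.00796). Wnt6 was lower with Lgr5 as well, by -0.78 ± 0.12 (edgeR adjusted p = 0.00174). Of 4 T-box genes without a Tbx number in their names, Mga and Eomes could be tested. For Tspan8 and for Lgr5, edgeR, DESeq2 and limma-voom called 0 of these, with 0 and 1 at an unadjusted p under 0.05 by edgeR.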

How the data were processed

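Total RNA of FACS-sorted cells was sequenced single-end. The authors deposited raw read counts per Entrez gene with gene lengths, 1 table per library, with no normalization. Per the submitters' processing notes, the build was mm10 (GRCm38), and the tools listed are limma 3.24.14, edgeR 3.10.2, featureCounts and CASAVA 1.8.2. The aligner and the strand setting are not given in the sources used here. Symbols came from RefSeq (GRCm38.p6) for 25260 of 27164 genes, and identifiers without a symbol held 2.56 to 2.86% of counts. Exon overlaps came from GENCODE M21, whose exons can differ from the gene models behind the deposited counts. Hoxa3, for example, has 6014 exonic bases there and a deposited length of 2543. The overlap shares therefore need not hold for the bases that were counted.

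Counts were tested with edgeR 4.0.16 (R 4.3.3): TMM, filterByExpr with a minimum count of 10, a model of population and batch over all 8 libraries with 3 residual degrees of freedom, and the robust quasi-likelihood F-test. P-values are two-sided and Benjamini-Hochberg adjusted over the 16526 genes tested in a comparison, with a threshold of 0.05. There were 7 comparisons: T8hi against T8- cells, Lgr5+ against Lgr5- cells, the interaction of both markers, Tspan8 within Lgr5+ and within Lgr5- cells, and Lgr5 within T8hi and within T8- cells. The test was checked on simulated counts, where only genes well above the level of most Hox genes were changed. All genes had the same spread and no batch effect was put in. The check therefore does not cover the calls of low-count genes or the batch term. Normalization factors were 0.935 to 1.07, and the common biological coefficient of variation was 0.0928. Libraries with the same number share a batch, per the labels, and deviated together (r = 0.415 to 0.55 over 6 pairs of populations), so batch pairs them. Within populations the chi-square per degree of freedom was 36 to 57.3, so no library was a copy of another.

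Every member is counted, and some are not reported here by name. Those named with full values are the members past the threshold in a comparison and the 10 with the highest mean RPKM, and from each other list at most the 4 genes with the smallest adjusted p in the Tspan8 effect, the Lgr5 effect or the interaction. The members and lists were chosen with earlier results of these data known. Other settings were limma-voom (limma 3.58.1), DESeq2 1.42.0, RLE normalization, a floor of 1 CPM in 4 libraries or no filter on counts, no batch term, and the omission of each library in turn. The comparison of the batches was added after seeing the data.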

Additional observations from a re-analysis of the deposited data

Results flagged for a closer look

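The Tbx2 difference between T8hi and T8- cells was smaller in Lgr5+ than in Lgr5- cells. The difference between the 2 effects was 1.11 ± 0.17 (edgeR adjusted p = 0.00599), and 1.05 without Lgr5+T8hi replicate 2. Without the batch block it missed the threshold (edgeR adjusted p = 0.19). Lgr5 and Tspan8 levels also differed between the gates, and their part was not tested.

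In several genes the effect of 1 marker had opposite directions in the states of the other in both batches, but the test of that difference did not pass. For Hoxb5, the Tspan8 effect was positive in Lgr5+ and negative in Lgr5- cells in each batch, and the interaction was 1.84 ± 1.01 (edgeR adjusted p = 0.555). For 7 genes the Lgr5 effect was positive among T8hi and negative among T8- cells in each batch. The interaction was 2.36 ± 0.85 for Hoxa3, 2.22 ± 0.81 for Hoxb7, 3.42 ± 1.01 for Hoxd3, 1.24 ± 0.51 for Hoxd8 and 2.81 ± 0.74 for Hoxd9. It was 1.16 ± 0.35 for Tbx15 and 1.89 ± 0.62 for Tbx18, and the edgeR adjusted p of the 7 genes lay between 0.0813 and 0.349.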

How the results depend on the processing

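Without the replicate block for batch, the number of members called fell from 10 to 2 for the Tspan8 effect, from 2 to 1 for the Lgr5 effect, from 1 to 0 for the interaction and from 9 to 2 for Tspan8 within Lgr5+ cells. It fell from 2 to 1 for Tspan8 within Lgr5- cells, from 1 to 0 for Lgr5 within T8hi cells and from 2 to 1 for Lgr5 within T8- cells. For the 2 counts of 0, edgeR gave an unadjusted p under 0.05 for 7 and 5 members. Over all genes the calls of the 7 comparisons fell from 2421, 1502, 421, 1560, 1167, 552 and 1464 to 705, 219, 1, 512, 147, 0 and 208 (T8hi against T8-, Lgr5+ against Lgr5-, interaction, Tspan8 within Lgr5+ and Lgr5-, Lgr5 within T8hi and T8-). Leaving out 1 library gave 1428 to 3374, 726 to 2618, 119 to 584, 627 to 2136, 489 to 1943, 43 to 943 and 750 to 2354 calls over all genes. With at least 1 CPM in 4 libraries, which leaves 9 members, 4 were called for Tspan8 and 2 within Lgr5+ cells, and DESeq2 called 4 and 4. Over all genes the calls were 2056 and 1208 of 14080 with that filter, and 2101 and 1350 of 16526 by DESeq2. With no count filter 2 members were called for the interaction, Tbx2 and Tbx3, where 497 of all 21643 genes were called. Leaving out 1 library gave 3 to 8 calls for Tspan8, 2 to 3 for Lgr5, 0 to 2 for the interaction and 2 to 10 for Tspan8 within Lgr5+ cells. It gave 2 to 3 for Tspan8 within Lgr5-, 0 to 2 for Lgr5 within T8hi and 2 for Lgr5 within T8- cells. Hoxb9 joined Tbx2 for Lgr5 within T8hi cells without Lgr5-T8hi replicate 2 or either Lgr5+T8- library. Of 428 alternative values of 32 gene results, 306 kept their side of the threshold, 122 lost it and 0 reversed. The 4 results kept under every alternative were Tbx2 for Tspan8, for Lgr5, for Tspan8 within Lgr5- and for Lgr5 within T8- cells. The cause of the other changes was not tested. Most Hox genes have few counts, so for them a missed threshold does not show that populations were alike.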

Other observations

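Among the genes with too few counts for the test, Hoxc13, a hair and nail keratin regulator, had 9 and 5 counts in Lgr5+T8- libraries and 0 to 2 in each other library. It was singled out after its values were seen. In the fit without a count filter its Lgr5 effect within T8- cells was 2.76 (edgeR adjusted p = 0.2), so the difference did not pass the threshold.

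Hotair, the noncoding gene of the Hoxc cluster, and Hoxa11os had 0 counts in every library, beside Hoxc11, Hoxc12 and Hoxa11, which were at 0 too.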
